A study of Gallus gallus with 15 samples.

Results

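The carriers that move glucose, amino acids, lactate and related nutrients across the membranes of chicken breast muscle were described at 42, 126 and 180 days of age. The genes were taken by name: every gene name of the solute carrier families SLC1, SLC2, SLC3, SLC5, SLC7, SLC16, SLC27, SLC36, SLC38 and SLC43, with the rows that shared a name summed. This gave 70 of 23599 gene names, read from 150 of 48836 rows of the expression table. Of the 70 names, 27 stood on a single row and 43 on several. The pattern also took 2 names that are no transporters, SLC7A6OS (a neighbour of SLC7A6 on the opposite strand, in mammals) and SLC2A4RG (a transcription factor named for the human GLUT4 gene), which are given as such.

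Breast muscle was sampled from Jingyuan hens, a Chinese local breed, with 5 untreated hens at each of the ages 42, 126 and 180 days. The labels give a body weight of 0.422 ± 0.03 kg for the youngest group, of 1.68 ± 0.14 kg for the middle group and of 2.03 ± 0.09 kg for the oldest. The study places the start of the breeding period at 42 days, sexual maturity at 126 days and market age at 180 days. Each age was its own slaughter batch, so age and slaughter batch cannot be told apart, and no hen was sampled at more than a single age. Polyadenylated RNA was sequenced and the values are FPKM (mapped fragments of a transcript per kilobase of its length and per 1000000 fragments mapped), which hold no read counts, so the depth behind them is unknown.

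The labels carry the words myoblast and primary cell beside the breast tissue. The 8 fast fibre markers found (of 17 listed) summed to a median of 28223, 26015 and 29234 FPKM at 42, 126 and 180 days, against 146, 117 and 117 FPKM for the 5 markers of myoblasts and satellite cells found (of 7 listed). The 9 slow fibre markers found (of 10 listed) summed to medians of 1784, 2863 and 3601 FPKM. Of these, TNNC1 reached 3790 FPKM and no other more than 18.5 FPKM in any bird. Of the fast fibre markers, MYL1 and TNNT3 reached the highest values (15408 and 12885 FPKM), and PVALB no more than 4.37 FPKM in any bird. Fast fibre markers thus had the highest sums, and the profiles were read as those of fast muscle tissue. Sums over different genes do not measure the share of a cell type. Single birds stood apart. The 180-day-old replicate 1 had B cell markers (3 found of 6 listed) summing to 508 FPKM. Of this sum JCHAIN made up 487 FPKM, with CD79B at 12.95 and PAX5 at 7.98 FPKM. T cell markers of that bird summed to 88.6 FPKM. The other 4 birds of that age reached at most 5.54 FPKM for the B cell and 9.84 FPKM for the T cell markers. The 126-day-old replicate 1 had the highest sum of fibroblast markers (1272 FPKM) and of erythrocyte markers (280 FPKM) of the 15 birds, and the 42-day-old replicate 5 the lowest sum of fast fibre markers (14189 FPKM). For the solute carrier names with a mean of at least 0.5 FPKM, the pairwise comparisons were also made without each of these birds. For those named below, the value without a bird is given where this changed a call or brought the adjusted p under 0.05. It is also given where a log2 fold change above 0.1 turned its direction. Of the other genes named below, only the calls of PRKAA2 and ACSL1 were examined in this way. In bulk tissue, fewer cells of a type and less RNA per cell cannot be told apart.

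Muscle takes up glucose through facilitative carriers of the SLC2 (GLUT) family, and exports the lactate of glycolysis with a proton through the monocarboxylate carriers of the SLC16 (MCT) family. In mammals the insulin-responsive muscle carrier is GLUT4 (SLC2A4), which chickens are known to lack. Amino acids enter through sodium-coupled carriers such as those of SLC38, through the cationic carriers of SLC7, and through exchangers in which an SLC7 light chain is bound to an SLC3 heavy chain; leucine brought in this way is known to activate the growth regulator mTORC1. Of 44 genes listed for their known roles, 38 were found. No row carried the names SLC2A3, SLC1A5, SLC3A2, SLC7A8, SLC38A3 or SLC43A1, which were not analysed here, although RefSeq gives GLUT3 and SLC2A3 as synonyms of chicken SLC2A14, which was measured.

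The 70 names together made up between 0.0426% and 0.157% of a bird's summed FPKM. A mean of at least 0.5 FPKM over the 15 birds was reached by 38 of them, of at least 5 FPKM by 15 and of at least 10 FPKM by 7, while 17 lay below 0.1 FPKM and 2, SLC16A14 and SLC38A8, were listed at 0 in every bird. The 5 most abundant, SLC16A9, SLC43A2, SLC7A5, SLC38A2 and SLC27A1, carried 58.4% of the FPKM of all 70. Between pairs of ages 1 of the transporters passed the test in any comparison, SLC7A5 at 180 against 42 days. This was 2.63% of the 38 names tested there, beside 2.93% of all names, so the count did not set the transporters apart. At 126 against 42 days, a log2 fold change of 1 was not excluded for 17 of the 36 names tested. At 180 against 42 and 180 against 126 days it was not excluded for 19 of 38 and 23 of 39 names.

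**Figure D1:**
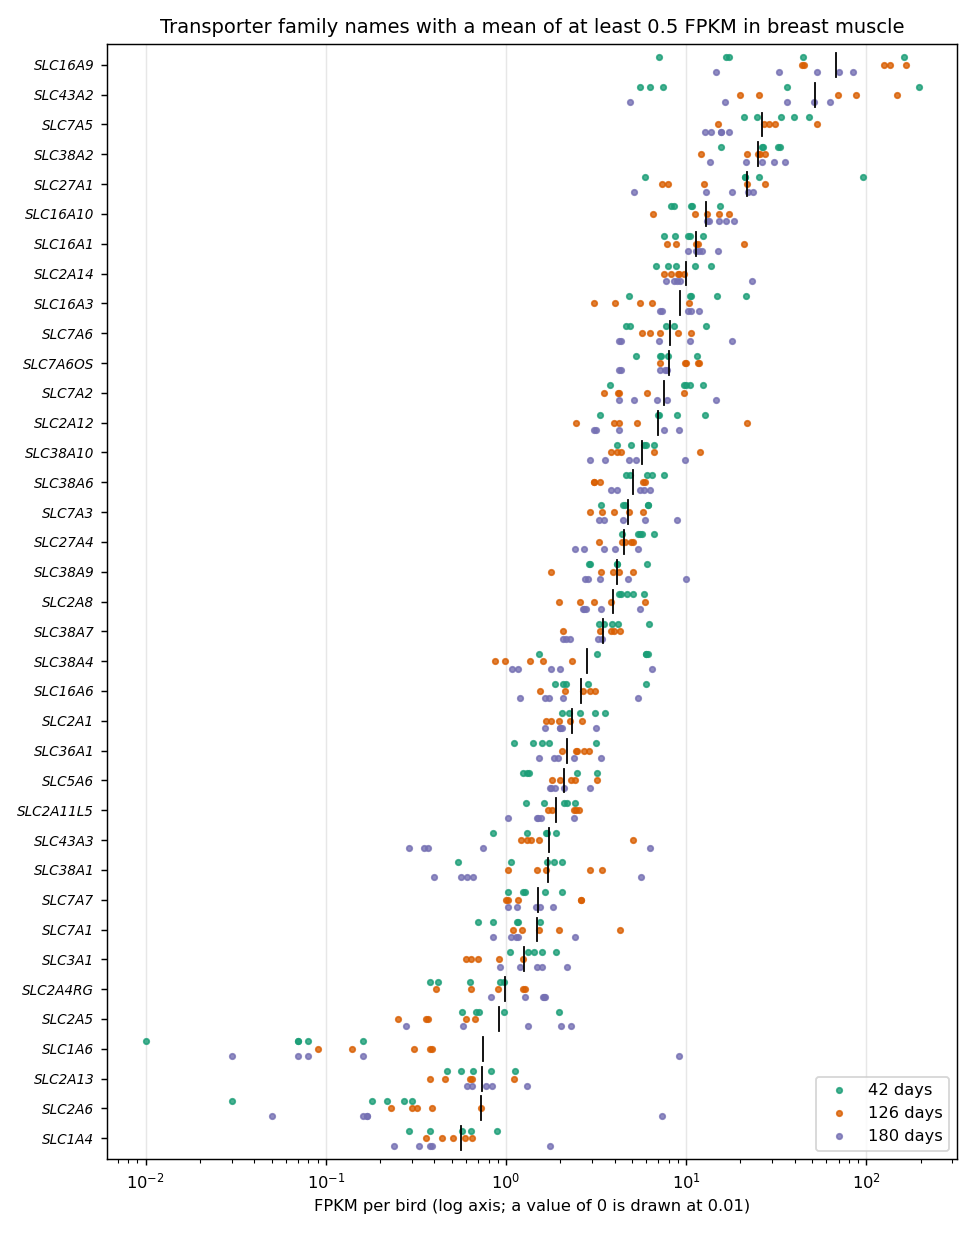
FPKM in each of the 15 birds (log axis) for 37 of the 38 gene names with a mean of at least 0.5 FPKM, ordered by their mean over the 15 birds (vertical tick); points are single birds coloured by age, in the order 42, 126 and 180 days from top to bottom within a gene. SLC16A9 (mean 67.9 FPKM) stands at the top and SLC1A4 (0.561 FPKM) at the bottom, and SLC7A5 is the gene in which the points of 180 and 42 days do not overlap.

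Differences were tested with limma on log2(FPKM + 0.1) over all gene names whose mean reached 0.5 FPKM in the birds compared. A gene was called when its adjusted p (Benjamini-Hochberg over all names tested) was under 0.05 and its absolute log2 fold change, the later age over the earlier, at least 1. Between 126-day-old and 42-day-old hens, 0 of 36 carrier-family names tested were called, where 2.46% of all 11482 names tested were called. The carrier-family names counted in each comparison include SLC7A6OS and SLC2A4RG, which are no transporters. An unadjusted p under 0.05 was reached by 5 of the 36 (13.9%), against 19.6% of all names. None of the 36 had values without overlap between these ages, against 6.44% of all names. Between 180-day-old and 42-day-old hens, 1 of 38 was called, SLC7A5, against 2.93% of all 11692 names. Of the 38, 6 (15.8%) had an unadjusted p under 0.05, against 17.6% of all names. SLC7A5 was the only one of the 38 without overlap, against 5.66% of all names. Between 180-day-old and 126-day-old hens, 0 of 39 were called and 0 were without overlap, against 0.921% and 4.31% of all 11515 names. Here 4 of the 39 (10.3%) had an unadjusted p under 0.05, against 15.8% of all names.

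The test of any difference among the 3 ages (moderated F, limma) likewise had 1 of 38 names under an adjusted p of 0.05, SLC7A5, against 6.28% of 11601 names. Under an unadjusted p of 0.05 were 8 of the 38 (21.1%), against 23.0% of all names. That call of SLC7A5 (adjusted p = 0.0421) held under 4 of 7 other settings and in 4 of 15 fits with a bird left out (0.0171 to 0.102). Those 4 were without the 42-day-old replicate 3, the 126-day-old replicate 1, the 126-day-old replicate 4 or the 180-day-old replicate 1. Over the same 15 fits, SLC38A4 fell under 0.05 in 2 (lowest adjusted p = 0.0412, moderated F). SLC16A3 (0.0416), SLC27A4 (0.0409), SLC38A1 (0.0351) and SLC43A3 (0.0169) did so in 1 each. Which birds were left out in the fits of these 5 genes is not given here. The median log2 fold changes of the carrier-family names tested were -0.15 (126 against 42 days), -0.10 (180 against 42) and -0.00 (180 against 126). Over all names they were -0.15, -0.13 and 0.01. The 95% interval of the log2 fold change lay wholly within 1 of no change for 19 of 36, 19 of 38 and 16 of 39 names in these comparisons. For the others a change of a log2 unit was not excluded by the interval.

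**Figure D2:**
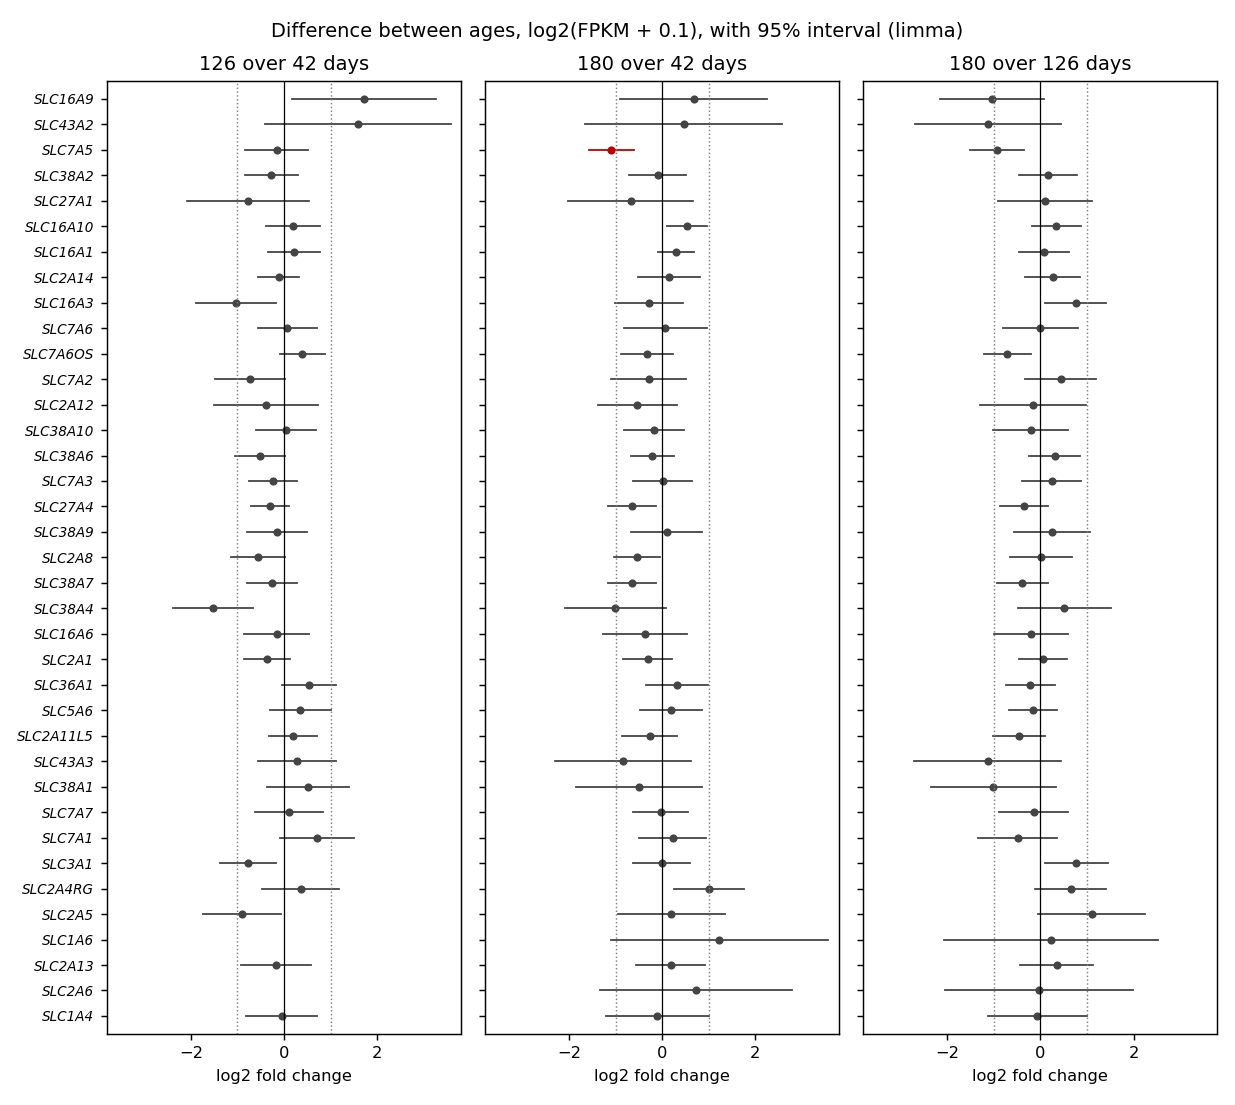
Log2 fold change with its 95% interval (limma, log2(FPKM + 0.1)) for the tested names among 37 of the 38 with a mean of at least 0.5 FPKM over the 15 birds, in the comparisons 126 over 42, 180 over 42 and 180 over 126 days; dotted lines mark a log2 fold change of 1 in either direction and red the called gene. SLC7A5 in the middle panel is the only red point (-1.09), and the widest intervals belong to genes that varied most between birds, such as SLC43A2 and SLC1A6.

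The gene that differed encodes LAT1, the light chain that exchanges leucine and other large neutral amino acids against intracellular glutamine. SLC7A5 had 17.3, 13.8, 15.7, 12.7 and 15.6 FPKM in the 180-day-old hens, against 47.7, 24.8, 21.0, 39.6 and 33.7 FPKM in the 42-day-old hens. All 5 of the older hens lay below all 5 of the younger ones, and the older hens also lay closer to each other (14.996 ± 1.77 FPKM, against 33.4 ± 10.8 FPKM, mean ± SD, n = 5 each). SLC7A5 fell by 1.09 on the log2 scale (SE 0.22, 95% interval -1.57 to -0.61, adjusted p = 0.0190, limma). In the 126-day-old hens it had 52.9, 30.9, 28.7, 14.9 and 27.1 FPKM, a span that overlapped both other ages. At 180 against 126 days the log2 fold change of SLC7A5 was -0.93 (95% interval -1.52 to -0.35, adjusted p = 0.115, limma), and without the 126-day-old replicate 4, the lowest of its age, it was called (-1.17, adjusted p = 0.0369). At 126 against 42 days the 2 ages overlapped.

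The call of SLC7A5 at 180 against 42 days held under 8 of 8 other settings (adjusted p between 0.0145 and 0.0417, limma) and in 6 of 10 fits with a bird left out (0.0120 to 0.0544). It was lost without the 180-day-old replicate 2 (adjusted p = 0.0514), without the 180-day-old replicate 4 (0.0544), without the 42-day-old replicate 4 (0.0535), and without the 42-day-old replicate 1, where the log2 fold change of -0.95 missed the minimum of 1. Without the 180-day-old replicate 1, the bird rich in immune markers, the log2 fold change was -1.15 (adjusted p = 0.0144). Fibroblast markers differed in the same direction: 4 of 6 were called lower at 180 days and all 6 had a lower mean log2 value, and their sum ranged from 39.4 to 219 FPKM in 180-day-old hens, against 246 to 816 FPKM in 42-day-old hens. None of these 6 markers was at 0 in all birds. All 6 myeloid markers tested and all 5 markers of myoblasts and satellite cells also had lower mean log2 values, with 0 and 1 called. The part of these cell types in the difference of SLC7A5 was not tested.

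The other subunits of the heteromeric exchangers gave no call, and SLC3A2, the heavy chain that SLC7A5 binds, was not analysed here. SLC3A1 (rBAT), the heavy chain of the cystine and dibasic amino acid exchanger of the kidney, had a low level, with 0.64, 0.60, 1.24, 0.70 and 0.92 FPKM in 126-day-old hens, against 1.32, 1.59, 1.43, 1.05 and 1.89 FPKM in 42-day-old hens. Only the 126-day-old replicate 3 reached into the range of the younger hens, and the log2 fold change of SLC3A1 was -0.78 (SE 0.28, adjusted p = 0.150, limma). At 180 days SLC3A1 stood at 1.48 ± 0.474 FPKM, against 1.46 ± 0.312 FPKM at 42 days (SD, n = 5 each). The other light chains above 0.5 FPKM were SLC7A6 (y+LAT2, an exchanger of cationic against neutral amino acids) and SLC7A7 (y+LAT1). SLC7A6 averaged 7.72, 7.76 and 8.81 FPKM and SLC7A7 1.45, 1.68 and 1.40 FPKM at 42, 126 and 180 days. Their log2 fold changes lay between -0.14 and 0.11 in the 3 comparisons. For SLC7A6 this rests on summing its 6 rows: its most abundant row alone, which led in 12 of 15 hens, gave -1.23 at 126 against 42 days and 1.46 at 180 against 126 days, neither of them called.

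SLC7A11, the cystine and glutamate exchanger, averaged 0.287 FPKM over the 15 birds, and its highest value, 2.94 FPKM, was in the 180-day-old replicate 1. SLC7A10 averaged 0.0387 FPKM. The 7 light chains together summed to 42.97 ± 10.05, 40.7 ± 11.8 and 26.0 ± 7.97 FPKM at 42, 126 and 180 days (SD, n = 5 each), of which SLC7A5 carried 72.3% over all birds.

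**Figure D3:**
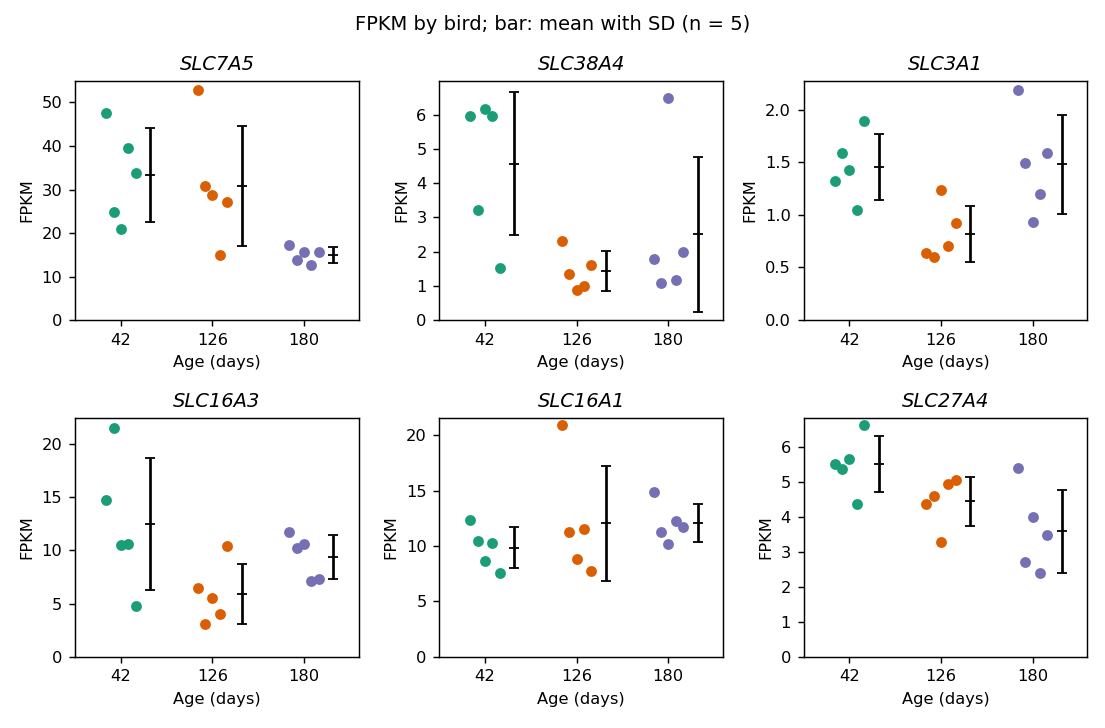
FPKM of SLC7A5, SLC38A4, SLC3A1, SLC16A3, SLC16A1 and SLC27A4 in each hen at 42, 126 and 180 days, with the mean and SD beside the points (n = 5 each). SLC7A5 is the gene whose 180-day-old hens (12.7 to 17.3 FPKM) all lie below the 42-day-old hens (21.0 to 47.7 FPKM), while in the other 5 panels at least a single hen of each age lies within the range of another age.

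Among the 9 sodium-coupled neutral amino acid carriers, SLC38A2 (SNAT2, which is known to be induced when amino acids are scarce) carried 52.1% of the summed FPKM. SLC38A2 had 33.2, 26.2, 32.3, 26.6 and 15.6 FPKM at 42 days, 27.4, 21.8, 25.0, 12.04 and 25.6 FPKM at 126 days, and 30.8, 21.4, 35.2, 13.5 and 26.4 FPKM at 180 days. The 3 ages covered nearly the same range, and the log2 fold change of SLC38A2 was -0.10 at 180 against 42 days (95% interval -0.70 to 0.50).

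SLC38A4 (SNAT4, a neutral amino acid carrier known from liver and placenta) came closest to a call at 126 days. It had 2.32, 1.36, 0.870, 0.990 and 1.61 FPKM in the 126-day-old hens, against 5.97, 3.21, 6.16, 5.96 and 1.53 FPKM in the 42-day-old hens. The 42-day-old replicate 5 lay within the range of the older hens, and the other 4 above it. The log2 fold change of SLC38A4 was -1.52 (SE 0.40, 95% interval -2.39 to -0.66, adjusted p = 0.0597, limma). SLC38A4 was called when FPKM were rescaled to a common sum (log2 fold change -1.61, adjusted p = 0.0457), without the 126-day-old replicate 1 (-1.71, adjusted p = 0.0407) and without the 42-day-old replicate 5 (-1.86, adjusted p = 0.0115), all with limma. At 180 days 4 hens had between 1.08 and 1.99 FPKM of SLC38A4 and replicate 3 had 6.49 FPKM.

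Of the other SLC38 carriers, SLC38A7 (a glutamine carrier of the lysosome in mammals) averaged 2.63 ± 0.648 FPKM in 180-day-old hens, against 4.21 ± 1.17 FPKM in 42-day-old hens (SD, n = 5 each). Its log2 fold change was -0.65 (95% interval -1.17 to -0.13, adjusted p = 0.168, limma). SLC38A9, which signals lysosomal arginine to mTORC1 in mammals, averaged 4.03, 3.67 and 4.71 FPKM at 42, 126 and 180 days, with 9.91 FPKM in the 180-day-old replicate 3. At 126 against 42 days its log2 fold change was -0.16, and 0.00 without the 42-day-old replicate 5. SLC38A10 averaged 5.50, 6.17 and 5.28 FPKM, and its log2 fold change at 180 against 126 days was -0.21, against 0.06 without the 126-day-old replicate 1. SLC38A6 averaged 5.93, 4.22 and 5.12 FPKM at these ages. The class as a whole summed to 52.5 ± 7.498, 43.4 ± 9.58 and 47.3 ± 13.0 FPKM (SD, n = 5 each), and 0 of its 7 tested genes were called in any comparison.

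SLC43A2 (LAT4, an efflux path for leucine, phenylalanine and methionine) was the second most abundant transporter. Of the 38 names, its log2 values had the largest SD between birds of an age. SLC43A2 had 5.56, 7.40, 6.31, 36.1 and 195 FPKM at 42 days, 149, 87.8, 25.3, 69.8 and 19.8 FPKM at 126 days, and 62.9, 36.3, 51.2, 16.4 and 4.85 FPKM at 180 days. It thus spanned 35.1-fold among hens of 42 days alone and 40.2-fold over the 15 birds. Names of lower level could span more, as SLC1A6 did with 305-fold among the 180-day-old hens. The SD of its log2 values within ages was 1.69, at the 98.7th percentile of the 11601 names tested over the 3 ages, whose median SD was 0.453. With this spread the log2 fold change at 126 against 42 days was 1.58 with a 95% interval of -0.41 to 3.57 (adjusted p = 0.363, limma), so that neither a change of several fold nor its absence was resolved.

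SLC16A9, an SLC16 member that carries carnitine and creatine in mammals and was the most abundant of the 70 names, varied in a similar way. SLC16A9 had 16.6, 17.3, 7.08, 44.6 and 161 FPKM at 42 days, 125, 167, 45.0, 134 and 43.9 FPKM at 126 days, and 32.8, 70.7, 53.3, 84.3 and 14.7 FPKM at 180 days. Its log2 fold change was 1.71 at 126 against 42 days (SE 0.71, adjusted p = 0.211, limma). Without the 42-day-old replicate 5 it was 2.35 and was called (adjusted p = 0.0406, limma). At 42 days, replicates 4 and 5 lay within the range of the 126-day-old hens and the other 3 below it. SLC27A1 (FATP1, a fatty acid carrier of muscle and fat) was another gene of this kind, with 5.93, 25.3, 21.2, 21.2 and 95.1 FPKM at 42 days, 12.5, 21.9, 7.32, 27.3 and 7.96 FPKM at 126 days, and 12.9, 17.8, 21.9, 23.3 and 5.16 FPKM at 180 days.

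The highest value of all 3 genes at 42 days was in replicate 5, the bird with the lowest sum of fast fibre markers (14189 FPKM, where the other 4 had at least 25136 FPKM). The part of that difference in the 3 genes was not tested. Correlations used log2(FPKM + 0.1) with each age centred on its own mean for r, and ranks within each age for rho. Over the 15 birds, SLC16A9 and SLC43A2 correlated with r = 0.845 (rho = 0.533, permutation p = 0.00153 for r and 0.0728 for rho). Without the 2 birds farthest from the median of SLC16A9, the 42-day-old replicates 3 and 5, r was 0.742. Across the 91 pairs of the 14 transporters with a mean of at least 5 FPKM the adjusted p of r for this pair was 0.0696, and 0 pairs had an adjusted p under 0.05. SLC16A9 and SLC27A1 gave r = 0.787 and rho = 0.833 (permutation p = 0.00529 and 0.00149, adjusted p = 0.120 and 0.136), with r = 0.808 without the same 2 birds. SLC43A2 and SLC27A1 gave r = 0.752 and rho = 0.50 (permutation p = 0.00683 and 0.0948, adjusted p = 0.124 and 0.479), but r fell to 0.391 without the 42-day-old replicate 5 and the 180-day-old replicate 5, so that this relation rests on those birds. The pair with the smallest p of r was SLC2A14 and SLC38A10 (r = 0.702, permutation p = 0.00065, adjusted p = 0.0591), with r = 0.494 without the 42-day-old replicate 5 and the 180-day-old replicate 1. These pairs were singled out after their values had been seen.

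**Figure D4:**
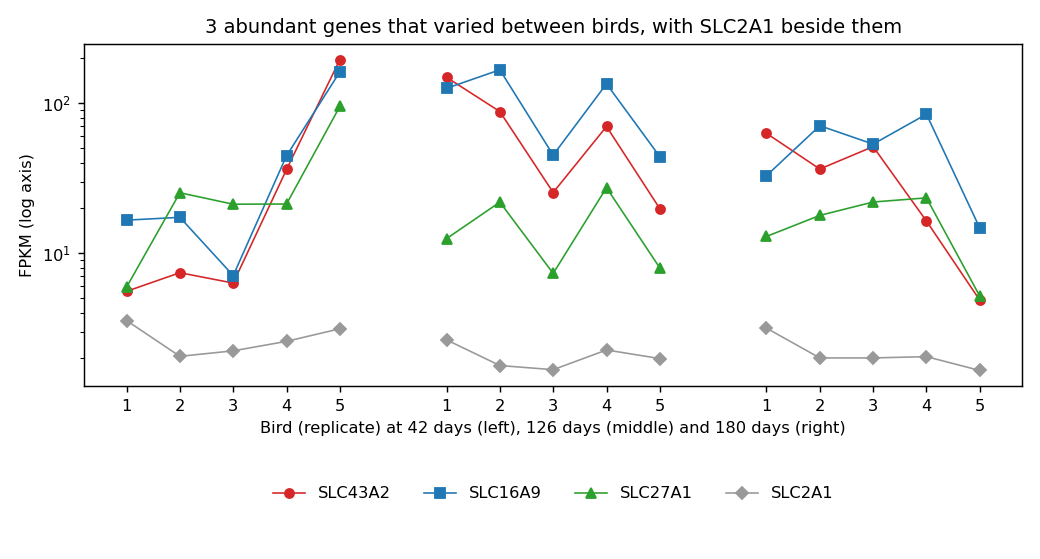
FPKM (log axis) of SLC43A2, SLC16A9 and SLC27A1 in each hen, with SLC2A1 for comparison; hens are ordered by replicate number within 42, 126 and 180 days from left to right, lines join birds of an age only to guide the eye, and replicate numbers have no order. Among the 42-day-old hens, replicate 5 is highest for the 3 variable genes (195, 161 and 95.1 FPKM), while SLC2A1 stays between 1.65 and 3.55 FPKM in all 15 hens.

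Glucose carriers were led by SLC2A14, the chicken GLUT3, with 35.96% of the FPKM of the 15 hexose carrier names. SLC2A14 had 8.82, 7.90, 11.2, 6.83 and 13.7 FPKM at 42 days, 9.17, 8.18, 7.53, 8.97 and 9.68 FPKM at 126 days, and 23.3, 8.57, 7.71, 8.84 and 9.26 FPKM at 180 days. The only hen far from the others was the 180-day-old replicate 1, and the log2 fold changes of SLC2A14 lay between -0.12 and 0.27. Without that bird they were -0.02 at 180 against 126 days and -0.13 at 180 against 42 days, where they had been 0.27 and 0.15, and without the 42-day-old replicate 5 the log2 fold change at 126 against 42 days was 0.02. SLC2A12 (GLUT12, which responds to insulin in mammals) averaged 7.80 ± 3.43, 7.55 ± 8.03 and 5.44 ± 2.75 FPKM at 42, 126 and 180 days (SD, n = 5 each), with 21.8 FPKM in the 126-day-old replicate 2.

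SLC2A1 (GLUT1, the basal glucose carrier) was among the steadiest of the transporters, at 2.71 ± 0.625, 2.07 ± 0.392 and 2.17 ± 0.576 FPKM at 42, 126 and 180 days (SD, n = 5 each). The SD of its log2 values within ages was 0.303, the lowest of the 38 names, and its log2 fold changes were -0.36, -0.31 and 0.05 in the comparisons 126 against 42, 180 against 42 and 180 against 126 days. SLC2A8 (GLUT8, an intracellular hexose carrier) averaged 3.41 ± 1.21 FPKM in 180-day-old hens, against 4.84 ± 0.642 FPKM in 42-day-old hens, and the log2 fold change was -0.54 (95% interval -1.04 to -0.04, adjusted p = 0.238, limma). Without the 180-day-old replicate 1 the log2 fold change of SLC2A8 was -0.72 (adjusted p = 0.0291), short of the minimum of 1. SLC2A5 (GLUT5, a fructose carrier) averaged 0.98, 0.45 and 1.296 FPKM at 42, 126 and 180 days. Its log2 fold change at 180 against 42 days was 0.20, and -0.03 without the 180-day-old replicate 1.

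SLC2A2 (GLUT2, typical of liver) and SLC5A1 (SGLT1, the sodium-coupled glucose carrier of the intestine) were near 0. They averaged 0.0487 and 0.0913 FPKM over the 15 birds. SLC2A10, SLC2A11 and SLC5A10 averaged between 0.235 and 0.299 FPKM. The hexose carriers together summed to 29.7 ± 2.41, 25.6 ± 7.91 and 27.9 ± 13.9 FPKM at 42, 126 and 180 days (SD, n = 5 each), and 0 of the 6 or 7 tested were called in any comparison. Of the inositol carriers, SLC5A3 averaged 0.283 FPKM, and SLC5A6, the multivitamin carrier for biotin and pantothenate, averaged 1.91, 2.34 and 2.08 FPKM at the 3 ages.

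Of the lactate carriers, SLC16A3 had its lowest mean at 126 days, without passing the test, and SLC16A1 was nearly even. SLC16A3 (MCT4, the low-affinity lactate exporter of glycolytic fibres) had 6.42, 3.07, 5.54, 4.04 and 10.4 FPKM in the 126-day-old hens, against 14.8, 21.5, 10.6, 10.6 and 4.81 FPKM in the 42-day-old hens. Of the 126-day-old hens, 3 lay within the range of the 42-day-old hens, whose replicate 5 was far below the other 4. The log2 fold change of SLC16A3 was -1.03 (SE 0.39, 95% interval -1.89 to -0.17, adjusted p = 0.180, limma). Without the 42-day-old replicate 5 it was -1.33 and was not called (adjusted p = 0.0575, limma). SLC16A3 had 11.7, 10.3, 10.6, 7.12 and 7.32 FPKM in the 180-day-old hens, a log2 fold change of 0.76 against the 126-day-old hens listed above (adjusted p = 0.239, limma). Neither difference passed the test.

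SLC16A1 (MCT1, a carrier of higher affinity that also takes lactate up) had 12.4, 10.5, 8.68, 10.3 and 7.57 FPKM at 42 days, 20.9, 11.3, 8.83, 11.6 and 7.78 FPKM at 126 days, and 14.9, 11.3, 10.2, 12.3 and 11.7 FPKM at 180 days. Its log2 fold changes lay between 0.08 and 0.30, with the single high value in the 126-day-old replicate 1. Without that bird the log2 fold change of SLC16A1 at 126 against 42 days was -0.00, where it had been 0.22. The ratio of SLC16A3 to SLC16A1 FPKM within a bird had a median of 1.19 (0.635 to 2.06) at 42 days, 0.350 (0.273 to 1.33) at 126 days and 0.785 (0.579 to 1.03) at 180 days, and was above 1 in 4, 1 and 1 of 5 hens. This ratio is given as a description, without a test. SLC16A7 (MCT2) averaged 0.153 FPKM, and SLC16A12, another member of the family, 0.042 FPKM.

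BSG (basigin), the chaperone that brings both carriers to the cell surface, averaged 89.2 ± 7.31, 106 ± 22.6 and 98.6 ± 18.9 FPKM at 42, 126 and 180 days (SD, n = 5 each). The alternative chaperone EMB (embigin) averaged 0.518, 0.692 and 1.35 FPKM. LDHA, the lactate dehydrogenase subunit of glycolytic muscle, averaged 6322, 6622 and 5364 FPKM. None of these 3 genes was called.

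SLC16A10 (TAT1, a carrier of aromatic amino acids and thyroid hormone) averaged 10.7, 12.6 and 15.4 FPKM at 42, 126 and 180 days and did not pass the test. It had 15.3, 13.4, 16.6, 18.4 and 13.1 FPKM in the 180-day-old hens, against 8.27, 10.6, 8.57, 10.8 and 15.4 FPKM in the 42-day-old hens. Apart from the 42-day-old replicate 5, the younger hens all lay below the older ones, and the log2 fold change was 0.54 (SE 0.20, 95% interval 0.11 to 0.97, adjusted p = 0.168, limma). Without that bird it was 0.68 (adjusted p = 0.0406), short of the minimum of 1.

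Cationic amino acid carriers, which bring in arginine and lysine, were led by SLC7A2 (CAT2). SLC7A2 had 9.69, 4.23, 3.5, 4.18 and 6.03 FPKM in the 126-day-old hens, against 9.72, 12.5, 10.01, 10.5 and 3.76 FPKM in the 42-day-old hens. The 42-day-old replicate 5 lay within the range of the 126-day-old hens and the other 4 above it, and the log2 fold change of SLC7A2 was -0.73 (95% interval -1.49 to 0.02, adjusted p = 0.267, limma). SLC7A3 (CAT3) averaged 4.93, 4.18 and 5.21 FPKM and SLC7A1 (CAT1) 1.08, 2.03 and 1.33 FPKM at 42, 126 and 180 days. The class summed to 15.3 ± 3.11, 11.7 ± 3.32 and 14.3 ± 3.70 FPKM (SD, n = 5 each).

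Acidic amino acid carriers were low. SLC1A6, a glutamate carrier, led the 5 names with 0.746 FPKM over the 15 birds, but this mean rested on 1 bird: the 180-day-old replicate 1 had 9.16 FPKM and the other 14 birds at most 0.390 FPKM. SLC1A2 averaged 0.217 FPKM and SLC1A3 0.00667 FPKM. SLC1A4, a neutral amino acid carrier, averaged 0.554, 0.510 and 0.618 FPKM at 42, 126 and 180 days. Its log2 fold change at 180 against 42 days was -0.11, and 0.06 without the 42-day-old replicate 5. The proton-coupled carriers SLC36A1 (PAT1, of the lysosome) and SLC36A4 averaged 2.17 and 0.495 FPKM over all birds.

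Of the fatty acid carriers beside SLC27A1, SLC27A4 (FATP4) had 5.41, 2.71, 4.01, 2.41 and 3.48 FPKM in the 180-day-old hens, against 5.52, 5.38, 5.66, 4.38 and 6.64 FPKM in the 42-day-old hens. Only the 180-day-old replicate 1 reached into the range of the younger hens, and the log2 fold change of SLC27A4 was -0.65 (SE 0.23, adjusted p = 0.166, limma). Without that bird it was -0.80 (adjusted p = 0.0346), short of the minimum of 1. SLC27A2 and SLC27A6 averaged 0.183 and 0.121 FPKM.

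Of the 38 names, the 42-day-old replicate 5 had the highest value of its age for 18 and the 126-day-old replicate 1 for 17. The immune-rich 180-day-old replicate 1 had the highest value of its age for 24 of the 38, and the share over all names was not counted. For SLC43A3 (a carrier of purine nucleobases in mammals) it had 6.31 FPKM, where the other 4 hens of that age had between 0.290 and 0.750 FPKM, and for SLC38A1 (SNAT1, a glutamine carrier) 5.64 FPKM, where the others had between 0.40 and 0.66 FPKM. With this bird, the log2 fold change of SLC43A3 was -0.84 at 180 against 42 days and -1.13 at 180 against 126 days, with adjusted p of 0.577 and 0.503 (limma). Without it, SLC43A3 was called in both, with log2 fold changes of -1.57 (adjusted p = 0.0159) and -1.86 (adjusted p = 0.0421). At 126 against 42 days the log2 fold change of SLC43A3 was 0.29 with all birds and -0.08 without the 126-day-old replicate 1. SLC38A1 was, without the 180-day-old replicate 1, called at 180 against 126 days, at -1.64 (adjusted p = 0.0338), where it had -1.01 (adjusted p = 0.479) with all birds. The part of the B cell and T cell markers of that bird in these values was not tested.

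For several transporters the FPKM of a hen stood on different rows of the same name in different hens. SLC36A1 had 2 rows, and in each of the 15 hens 1 of them held the whole value and the other was at 0; the row that was most often in use led in 8 hens and the other in 7. SLC3A1 and SLC2A8 also changed their leading row in 7 hens each, and SLC38A9 in 5. Rows sharing a name were summed by the rule that took the genes, and in these genes a single row would have read as a gain or loss of the gene. For SLC7A5 and SLC38A2, 98.4% and 99.0% of the FPKM stood on the same row in all hens.

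**Figure D5:**
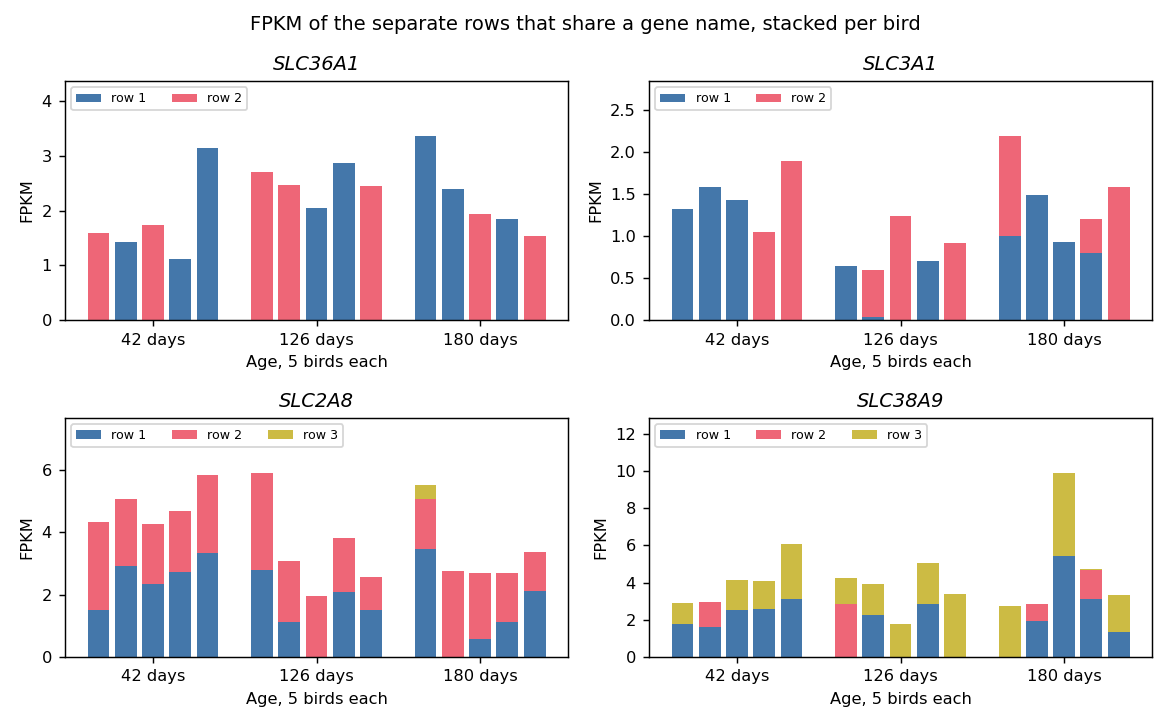
FPKM of SLC36A1, SLC3A1, SLC2A8 and SLC38A9 in each hen (5 bars per age, by replicate number), stacked by the separate rows of the table that carry the name; rows at 0 in all hens are not drawn. In SLC36A1 each bar is of a single colour, with the row in use changing from hen to hen (7 of 15 hens on the less used row), while the summed height stays between 1.11 and 3.36 FPKM.

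Genes around the transporters were read from a list of 52, of which 45 were found and 44 tested. At 126 against 42 days 0 were called higher and 1 lower, at 180 against 42 days 0 in either direction, and at 180 against 126 days 1 higher and 1 lower. These were 2.27%, 0% and 4.55% of the 44, beside 2.46%, 2.93% and 0.921% of all names. In the test over the 3 ages 5 of the 44 (11.4%) had an adjusted p under 0.05, against 6.28% of all names: PRKAA2 (0.00646), TBC1D1 (0.0270), AKT2 (0.0386), IRS1 (0.0408) and ACSL1 (0.0429), all with limma. How far these 5 results depend on single birds or on the settings is not given here for this test. AKT2 and IRS1, of insulin signalling, averaged 48.3, 35.8 and 53.4 FPKM and 5.37, 5.73 and 2.76 FPKM at 42, 126 and 180 days, and neither was called between pairs of ages. PRKAA2, a catalytic subunit of the energy sensor AMPK that promotes glucose uptake in muscle, had 14.7, 12.9, 15.97, 24.9 and 26.5 FPKM in 126-day-old hens, against 45.6, 51.7, 33.7, 42.6 and 31.7 FPKM in 42-day-old hens. The ages did not overlap, and PRKAA2 fell by 1.14 on the log2 scale (SE 0.23, adjusted p = 0.0272, limma). In 180-day-old hens PRKAA2 had 33.6, 41.3, 49.6, 50.6 and 35.6 FPKM, and rose by 1.19 relative to the 126-day-old hens (SE 0.22, adjusted p = 0.0309, limma). These comparisons share the 126-day-old hens, and the calls held in 5 and 3 of 10 fits with a bird left out (adjusted p up to 0.0722 and 0.0962, limma). At 126 against 42 days the call of PRKAA2 was lost without replicates 2 or 3 of the 126-day-old hens or replicates 1, 2 or 4 of the 42-day-old hens, with the replicate number as a block (adjusted p = 0.0546) and with the highest row of each name (0.0664). At 180 against 126 days it was lost without replicates 2, 3, 4 or 5 of the 180-day-old hens or replicates 1, 2 or 3 of the 126-day-old hens, with no filter on FPKM (0.058) and with the highest row (0.0745). The log2 fold change of PRKAA2 at 180 against 126 days was 1.11 without the 126-day-old replicate 1 (adjusted p = 0.0591, limma). ACSL1, which activates fatty acids after uptake, averaged 26.4 ± 7.67 FPKM in 180-day-old hens, against 57.3 ± 14.7 FPKM in 126-day-old hens, and fell by 1.12 (SE 0.23, adjusted p = 0.0453, limma). The call of ACSL1 held in 2 of 10 fits with a bird left out, those without the 180-day-old replicate 4 or the 126-day-old replicate 3 (adjusted p between 0.0353 and 0.104 over the 10), and in 3 of 9 other settings. The log2 fold change of ACSL1 was -0.988 without the 180-day-old replicate 1 (adjusted p = 0.0371, limma). It was -1.12 without the 126-day-old replicate 1 (adjusted p = 0.0737, limma).

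Of the genes of amino acid sensing by mTORC1, 0 of 18 tested were called in any comparison, and of the amino acid starvation response 0 of 6. With 0.921% to 2.93% of all names called, a count of 0 in lists of this size is near that background. CHAC1, a target of that response that degrades glutathione, varied widely, at 239 ± 237, 76.2 ± 57.2 and 19.4 ± 18.8 FPKM at 42, 126 and 180 days (SD, n = 5 each), and was not called (adjusted p = 0.0858 at 180 against 42 days, limma). TBC1D1, which restrains glucose carriers inside the cell until it is phosphorylated, averaged 13.6 ± 3.33 FPKM in 180-day-old hens, against 7.14 ± 0.407 FPKM in 42-day-old hens, but its log2 fold change of 0.89 was under the minimum of 1 (adjusted p = 0.0197, limma).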

How the data were processed

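Breast muscle RNA of 15 Jingyuan hens (5 per age) was prepared by the authors with Trizol and sequenced as paired-end reads. Per the paper's methods the authors trimmed reads with Cutadapt and mapped them with HISAT2. The submitters' processing notes name HISAT2 2.2.1 and StringTie 2.1.6, and the genome build is not given in the sources used here. The deposited values are FPKM with 2 decimals, without counts, so depth and counting error are unknown. The FPKM of a bird summed to between 413638 and 481698 and were not rescaled. The study states more hens per age than the 5 with files used here.

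Rows sharing a name were summed, and all 70 names matched the RefSeq gene list. No sequences or coordinates are given. Each pair of ages was compared by limma 3.58.1 (R 4.3.3, with a trend) on log2(FPKM + 0.1), over names whose mean reached 0.5 FPKM, in place of the authors' DESeq2, which needs counts. Fold changes on this scale understate the change of low genes. Tables, permutations (100000, two-sided) and plots used Python 3.11.15, pandas 2.3.3, numpy 2.4.6, matplotlib 3.10.9 and scipy 1.17.1. The limma procedure was also run on simulated data with normal noise and independent genes. The hens here included single outlying birds, so that run does not bear on the calls reported.

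Genes named are the 3 most abundant of each family, called genes, and a list of known roles (47 names), with the 23 others given by counts. A gene among the 70 is not reported here by name and is not drawn, but is included in the counts and sums. Where others are named, they were chosen after their values were seen. The names, lists and tests were chosen with earlier results of these data known. Alternatives were a pseudocount of 1, no filter or a mean of at least 1 FPKM, FPKM rescaled to 1000000, quantile normalization, the highest row of each name, a block for the replicate number, a joint fit of the 3 ages, and leaving out single birds. Leaving out both birds of replicate 1 at 126 and 180 days was added after seeing the data. The limma p-values set a difference between ages against the spread between these hens, which came from a single slaughter batch per age. Those of the correlations came from permutations within ages.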

Additional observations from a re-analysis of the deposited data

Results flagged for a closer look

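Over 96 groups of 5 hens (32 named genes whose mean reached 0.5 FPKM, each at 3 ages), 19 had a hen farther from the others than Dixon's limit of 0.71 of the group's range, where chance gives about 1 in 20 groups if values are normal and groups independent. The FPKM were taken on a linear scale and the genes of a hen are not independent, so this share is no measure of how many to expect here. All 19 were the highest hen of the group. Of these, 8 were in the 180-day-old replicate 1, which had 23.3 FPKM of SLC2A14 (next hen 9.26), 5.51 of SLC2A8 (3.38), 3.16 of SLC2A1 (2.04), 2.92 of SLC5A6 (2.09), 6.31 of SLC43A3 (0.750), 5.64 of SLC38A1 (0.660), 9.16 of SLC1A6 (0.16) and 1.75 of SLC1A4 (0.390). Its B cell markers summed to 508 FPKM (487 FPKM of it from JCHAIN), and their part was not tested.

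The 42-day-old replicate 5 was apart for 3 genes, with 161 FPKM of SLC16A9 (next hen 44.6), 195 FPKM of SLC43A2 (36.1) and 95.1 FPKM of SLC27A1 (25.3). The 126-day-old replicate 1 had 20.9 FPKM of SLC16A1 (11.6) and 5.07 FPKM of SLC43A3 (1.52). The 126-day-old replicate 2 had 21.8 FPKM of SLC2A12 (5.34) and 4.3 FPKM of SLC7A1 (1.97). The 180-day-old replicate 3 had 9.91 FPKM of SLC38A9 (4.73) and 6.49 FPKM of SLC38A4 (1.99). Also apart were the 180-day-old replicate 5 with 2.42 FPKM of SLC7A1 (1.17) and the 42-day-old replicate 4 with 1.97 FPKM of SLC2A5 (0.970).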

How the results depend on the processing

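The number of transporters called was 0, 1 and 0 at 126 against 42, 180 against 42 and 180 against 126 days, and 1 in the test over the 3 ages. It ranged from 0 to 2 in each pairwise comparison with a bird left out, and from 0 to 4 in the test over the 3 ages. At 126 against 42 days it was 1 with FPKM rescaled to 1000000 (SLC38A4). In the test over the 3 ages it was 0 with no filter, 0 with quantile normalization and 0 with the highest row of each name, so the call of SLC7A5 there rests on the setting. Without both replicate 1 birds of 126 and 180 days, an alternative chosen after seeing the data, it was 2 at 180 against 126 days (SLC38A1, SLC43A3) and 5 in the test over the 3 ages (SLC27A4, SLC2A8, SLC38A1, SLC43A3, SLC7A5). The other settings gave the same counts as reported.

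With the replicate number as a block the counts were 0, 1, 0 and 1. The labels give same-numbered birds no more than a number. The correlation of their deviations lay between -0.128 and 0.32 and was over 0.1 in 3, 2 and 4 of 5 pairs in the 3 comparisons. In these, 3, 1 and 6 of 10 birds correlated best with their own number. The birds were not treated as paired in the main test, as the labels name no pairing. At 180 against 126 days, where these values were highest, the block raised the calls over all names from 106 to 270. What the number stands for is not known. Keeping the highest row turned the direction of log2 fold changes of SLC7A6, SLC38A9, SLC36A1, SLC5A6, SLC7A1 and SLC3A1. Each of these moved by more than the spread between birds, and none was called (SLC7A6 -1.23 at 126 against 42 days). Shifts that kept their direction were not screened. The calls over all names, 283, 342 and 106 in the 3 comparisons and 729 over the 3 ages, were 51, 172, 20 and 283 with the highest row, 186 with a pseudocount of 1 in the first comparison, 169 and 53 with no filter in the first and last comparisons, and 270 with the replicate block in the last. With a bird left out they ranged from 77 to 375, 176 to 770, 15 to 378 and 389 to 1280, the highest of the last 3 without the 180-day-old replicate 1, and the cause was not tested. Without both replicate 1 birds they were 336 at 180 against 126 days and 1681 over the 3 ages. No called transporter changed sign under these settings. With 5 hens per age, log2 differences of 1.58 (SLC43A2) and 1.71 (SLC16A9) in variable genes did not pass the test.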
